A study of Mus musculus with 6 samples.

Results

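The genes described here are 10 that mark mast cells. They are the proteases Mcpt1, Mcpt2, Mcpt4, Cma1, Cpa3, Tpsb2 and Tpsab1 and the receptor genes Kit, Fcer1a and Ms4a2, taken by symbol from a count table of 55450 genes. All 10 symbols were found, each in a single row, and all 10 passed the low-count filter among 22056 genes. The study sequenced the RNA of 6 subcutaneous flank tumours, raised in C57BL/6 mice from MTE-Ras cells, a tracheal epithelial cancer line carrying oncogenic RAS. In 3 mice the tumour had been injected with PV-10, a rose bengal solution given into the lesion, and in 3 with phosphate-buffered saline (PBS). The labels give no dose, age or time to collection, all tumours carried the same RAS-transformed line, and each library was bulk RNA of tumour tissue, cancer and host cells together. Of the epithelial markers, Krt8, Krt18, Krt19 and Krt7 were abundant, while Epcam was at 0.160 to 1.31 CPM in PV-10 and 0 to 0.367 CPM in PBS tumours (CPM, library-scaled counts after TMM normalization). The members were chosen by their measured levels in these 6 tumours, which differed widely within each group, so the levels, ratios and log2 changes of the 10 genes below are descriptions and carry no test. In bulk RNA, fewer mast cells and less RNA per mast cell cannot be told apart.

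Mast cells are tissue-resident leukocytes that mature under stem cell factor, the ligand of KIT. They carry IgE on a receptor whose alpha chain is encoded by Fcer1a, whose beta chain is encoded by Ms4a2 and whose signalling gamma chain is encoded by Fcer1g. Their granules store chymases, tryptases and carboxypeptidase A3 bound to heparin or related proteoglycans. In mice, mast cells of skin and connective tissue are known for Mcpt4, Cma1, Cpa3, Tpsb2 and Tpsab1, and those of mucosal epithelia for Mcpt1 and Mcpt2. C57BL/6 mice carry a splice defect that removes the Tpsab1 protein.

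Total counts ran from 36730318 to 94203331 in PV-10 tumours and from 87386266 to 98717951 in PBS tumours. A floor of 3 counts, which covers counting error only, was 0.0342 to 0.0822 CPM in PV-10 tumours, against 0.0290 to 0.0341 CPM in PBS tumours. Low counts were spread over more genes in PV-10 tumours 1 and 2 than in the other libraries. Over 1093 olfactory receptor genes, which serve smell and have little known use in tumours, the median level was 0.110, 0.0900 and 0 TPM (a measure scaled by transcript length and library) in PV-10 tumours 1, 2 and 3, and 0 TPM in each PBS tumour. The 95th percentile of those genes was 0.310, 0.524 and 0.1 TPM in PV-10 tumours 1, 2 and 3, against 0.0540, 0.110 and 0.0300 TPM in PBS tumours 1, 2 and 3. Mcpt1, Mcpt2, Mcpt4, Cma1, Cpa3, Tpsb2 and Kit lay above that TPM percentile of their own library in all 6 tumours. By CPM, the 95th percentile of the olfactory receptor genes was 1.74, 2.41 and 0.285 in PV-10 tumours 1, 2 and 3, against 0.277, 0.165 and 0.0676 in PBS tumours 1, 2 and 3. Members near or below these values are named as such where they are described.

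Among the proteases, the mucosal chymase genes had the widest range. Mcpt1 encodes a chymase of intraepithelial mast cells (ENSMUSG00000022227.5, mm10 chr14:56017971-56020384, plus strand). Its level was 1.19, 7.23 and 62.7 CPM in PV-10 tumours 1, 2 and 3, against 0.557, 122 and 0.657 CPM in PBS tumours 1, 2 and 3. In counts these were 69, 264 and 5495 in PV-10 tumours and 49, 11792 and 68 in PBS tumours. The highest and the lowest tumour of the series were thus both PBS tumours, and the highest tumour was 52.8-fold above the lowest among PV-10 tumours and 219-fold among PBS tumours. In PV-10 tumour 1 Mcpt1 lay below the olfactory receptor percentile by CPM, although above it by TPM. Mcpt2, the neighbouring gene for a chymase-like protease (ENSMUSG00000022226.6, chr14:56042041-56044642, plus strand), had 25.2, 37.3 and 53.6 CPM in PV-10 tumours 1, 2 and 3, against 0.477, 71.9 and 3.23 CPM in PBS tumours 1, 2 and 3. All 3 PV-10 tumours stood well above PBS tumours 1 and 3 and below PBS tumour 2. The PV-10 tumours lay within 2.13-fold of each other for Mcpt2, and the PBS tumours within 151-fold.

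The ratio of these neighbours was not fixed. Counts of Mcpt2 were 21.2, 5.16 and 0.855 times those of Mcpt1 in PV-10 tumours 1, 2 and 3, against 0.857, 0.590 and 4.93 times in PBS tumours 1, 2 and 3. The aligned transcripts of Mcpt1 and Mcpt2 were identical at 81.8% of bases, those of Mcpt1 and Mcpt4 at 85.3% and those of Tpsb2 and Tpsab1 at 74.0%. No window of 100 bases, the length of a read, of the longest coding transcript of Mcpt1 or Mcpt2 occurred in a transcript of another gene in Gencode release M21. Over the 10 genes the highest share of such shared windows was 0.6%, for Ms4a2 with Ms4a4b, and the only other value above 0 was 0.1%, for Mcpt4 with Cma2.

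**Figure D1:**
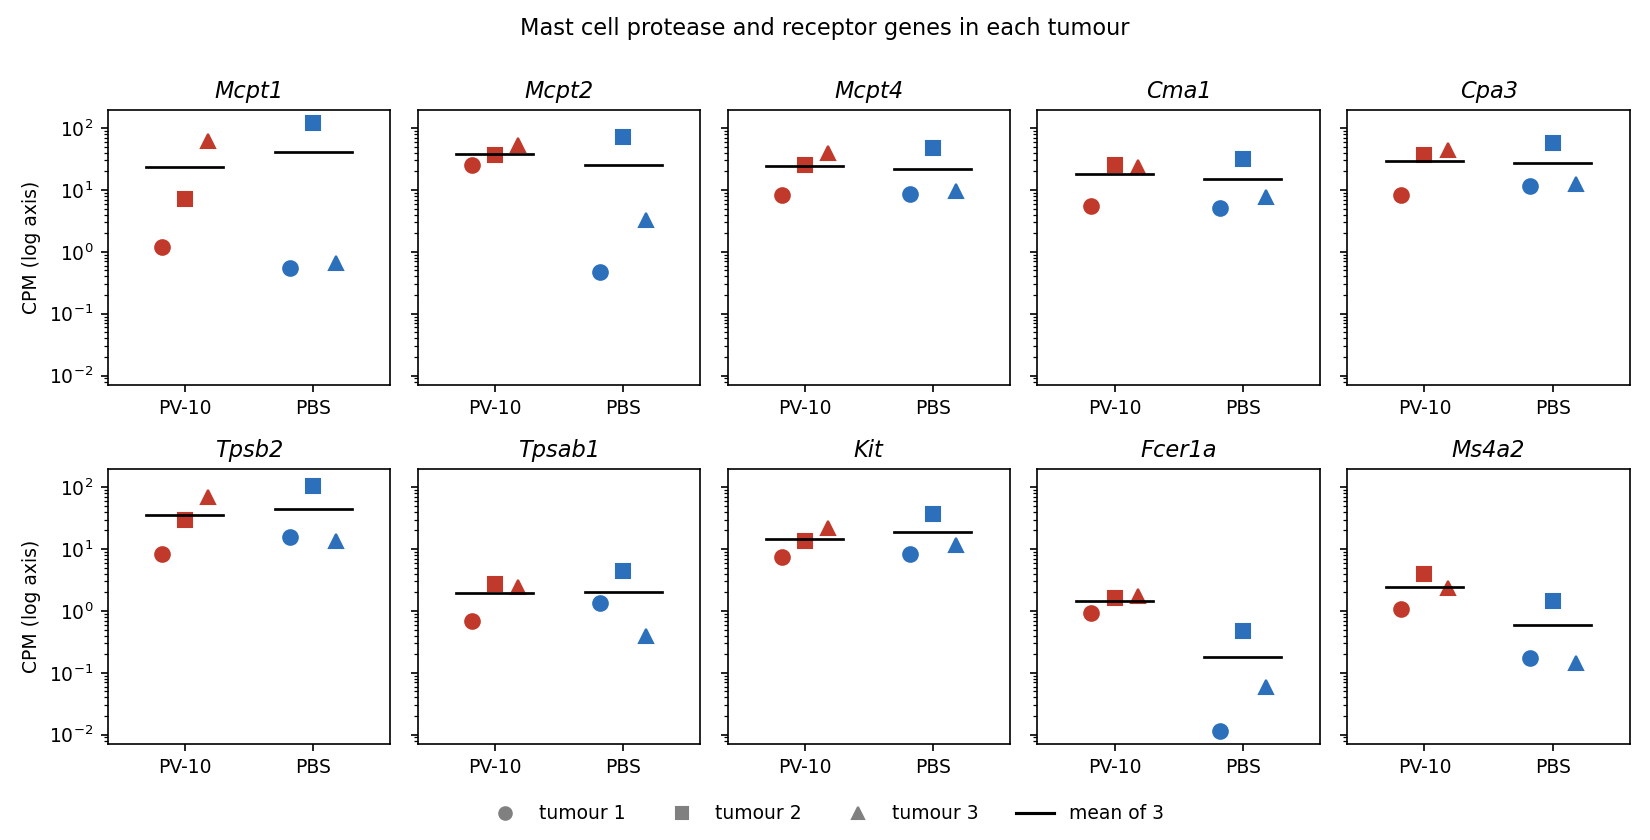
TMM-scaled CPM (log axis) of the 10 genes in each tumour, with PV-10 tumours in red at the left and PBS tumours in blue at the right; marker shapes give the tumour number and lines the mean of 3. PBS tumour 2 is the highest PBS tumour for all 10 genes, and Mcpt1 runs from 0.557 to 122 CPM within the PBS group.

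The proteases of connective tissue mast cells varied less than Mcpt1 in both groups, and in step. They varied less than Mcpt2 among PBS tumours but more than Mcpt2 among PV-10 tumours, where Mcpt2 spanned 2.13-fold. On log2 CPM over the 6 tumours, which fall in 2 groups and differ in depth, the Pearson correlation was 0.99 for Mcpt4 with Cpa3 and 0.98 for Cma1 with Cpa3. The order of the tumours was the same for Mcpt4, Cpa3 and the receptor gene Kit (Spearman 1), and Cma1 had a Spearman correlation of 0.89 with each. Mcpt1 and Mcpt2 also ranked the tumours alike (Spearman 1), although the ratio of their counts varied. Mcpt1 had a Spearman correlation of 0.83 with Mcpt4 and with Cpa3. Its Pearson correlation was 0.98 with Mcpt4 and 0.94 with Cpa3, so moving in step was not particular to the connective tissue genes. Mcpt4, the gene of a chymase (ENSMUSG00000061068.7, chr14:56059629-56062313, minus strand), had 8.31, 25.3 and 38.9 CPM in PV-10 tumours 1, 2 and 3, against 8.55, 47.5 and 9.44 CPM in PBS tumours 1, 2 and 3. Cma1, which encodes the alpha-chymase also called mouse mast cell protease 5 (ENSMUSG00000022225.7, chr14:55941451-55944675, minus strand), had 5.49, 25.5 and 23.9 CPM in PV-10 tumours, against 5.14, 32.1 and 7.65 CPM in PBS tumours. Both genes were high in PV-10 tumours 2 and 3 and in PBS tumour 2 and low in the other 3 libraries, so the groups overlapped.

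Cpa3, which encodes the granule carboxypeptidase and lies outside the chymase cluster (ENSMUSG00000001865.2, chr3:20215620-20242181, minus strand), followed the same order as Mcpt4. It had 8.38, 36.2 and 44.4 CPM in PV-10 tumours 1, 2 and 3, against 11.6, 58.2 and 12.5 CPM in PBS tumours 1, 2 and 3. Tpsb2, the gene of the main granule tryptase (ENSMUSG00000033825.10, chr17:25366305-25369098, plus strand), had 8.33, 29.0 and 70.5 CPM in PV-10 tumours, against 15.7, 104 and 13.5 CPM in PBS tumours. Among PV-10 tumours the highest value of Mcpt4, Cma1, Cpa3 and Tpsb2 was 4.68-, 4.64-, 5.29- and 8.46-fold above the lowest, and among PBS tumours 5.55-, 6.24-, 5.01- and 7.72-fold. The second tryptase gene, Tpsab1 (ENSMUSG00000024173.11, chr17:25343245-25345562, minus strand), had few reads, with 40, 101 and 212 counts (0.688, 2.77 and 2.42 CPM) in PV-10 tumours and 118, 427 and 41 counts (1.34, 4.41 and 0.396 CPM) in PBS tumours. By TPM, Tpsab1 lay below the 95th percentile of the olfactory receptor genes in PV-10 tumour 1 (0.160 TPM), as it did by CPM, and above it in the other 5 libraries on both scales.

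Counts set against those of Cpa3 in the same tumour show how closely these genes kept together, a measure chosen after their values were seen. Mcpt4 had 0.992, 0.700 and 0.877 counts per Cpa3 count in PV-10 tumours 1, 2 and 3, against 0.737, 0.816 and 0.755 in PBS tumours, a span of 1.42-fold over all 6. Cma1 spanned 1.59-fold over all 6 tumours and Tpsb2 2.24-fold. By contrast Mcpt1 per Cpa3 spanned 43.7-fold and Mcpt2 per Cpa3 73.1-fold. Mcpt2 had 3.01, 1.03 and 1.21 counts per Cpa3 count in PV-10 tumours, against 0.0411, 1.24 and 0.259 in PBS tumours.

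**Figure D2:**
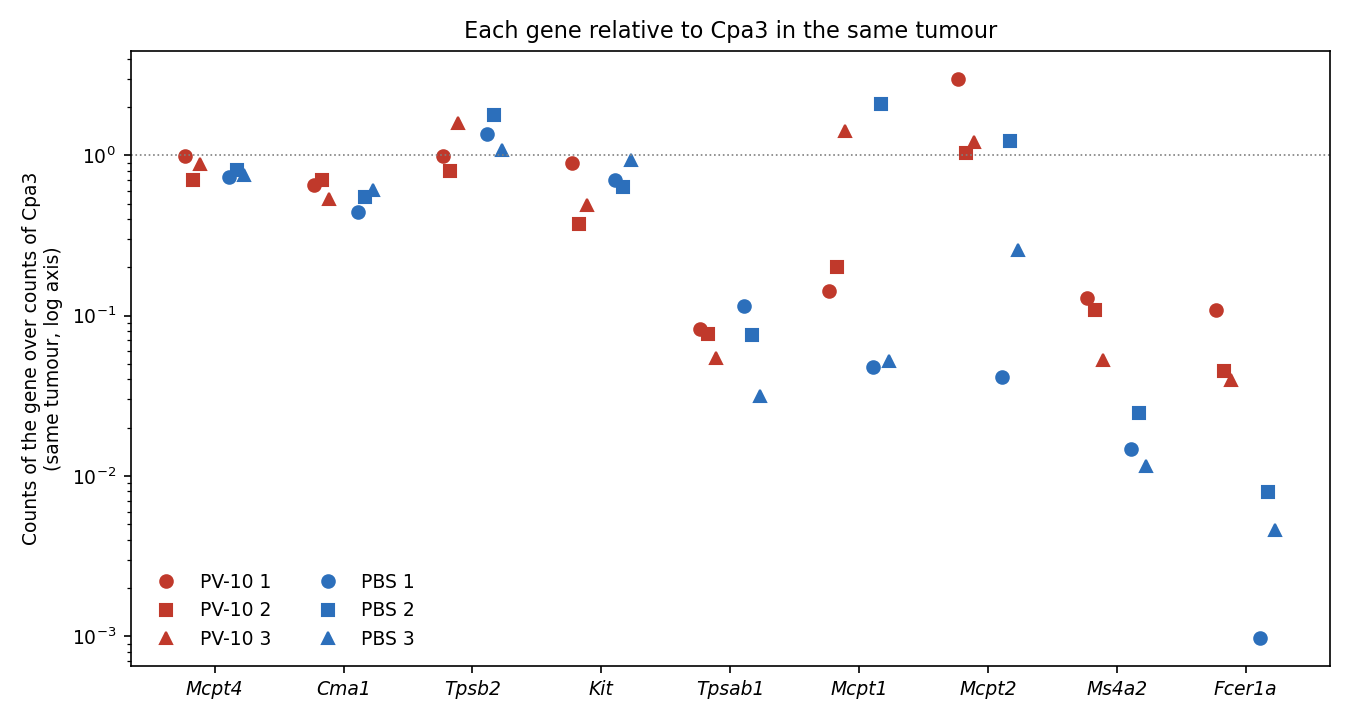
Counts of 9 genes divided by the counts of Cpa3 in the same tumour (log axis), with PV-10 tumours in red left of PBS tumours in blue. Mcpt4, Cma1 and Tpsb2 stay within narrow bands of 1.42-, 1.59- and 2.24-fold, while Mcpt1 and Mcpt2 span 43.7- and 73.1-fold and the PV-10 tumours lie above the PBS tumours for Ms4a2 and Fcer1a.

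The promoters are shown because Mcpt1 and Mcpt4 lie in the same cluster and differed in the width of their range, while Mcpt4, Cma1 and Cpa3 kept together across 2 chromosomes. RefSeq (GRCm38.p6) gave a promoter for 7 of the 10 genes, all but Mcpt2, Tpsb2 and Tpsab1. Each line gives the 250 bases before the start, 5′ to 3′ on the gene's strand, and capitals mark GATAA or its reverse complement TTATC, the core bound by GATA factors. GATA2 is a factor that mast cells need. The windows are Mcpt1 at chr14:56017714-56017963 (plus), Mcpt4 at chr14:56062311-56062560 (minus), Cma1 at chr14:55944676-55944925 (minus) and Cpa3 at chr3:20242182-20242431 (minus).
Mcpt1: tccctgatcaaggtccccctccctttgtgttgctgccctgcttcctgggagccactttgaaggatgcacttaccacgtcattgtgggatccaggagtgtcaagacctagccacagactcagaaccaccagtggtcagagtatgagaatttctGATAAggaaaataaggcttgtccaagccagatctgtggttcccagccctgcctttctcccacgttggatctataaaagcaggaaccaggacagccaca
Mcpt4: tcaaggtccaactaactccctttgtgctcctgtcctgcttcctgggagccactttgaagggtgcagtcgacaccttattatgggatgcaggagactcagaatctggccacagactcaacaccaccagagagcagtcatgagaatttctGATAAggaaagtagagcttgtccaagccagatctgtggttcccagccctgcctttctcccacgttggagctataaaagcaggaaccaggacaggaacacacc
Cma1: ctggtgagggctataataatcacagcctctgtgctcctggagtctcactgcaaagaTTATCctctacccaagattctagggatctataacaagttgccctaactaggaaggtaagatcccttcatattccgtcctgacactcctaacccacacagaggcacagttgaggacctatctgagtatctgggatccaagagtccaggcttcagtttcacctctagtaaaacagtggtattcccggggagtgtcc
Cpa3: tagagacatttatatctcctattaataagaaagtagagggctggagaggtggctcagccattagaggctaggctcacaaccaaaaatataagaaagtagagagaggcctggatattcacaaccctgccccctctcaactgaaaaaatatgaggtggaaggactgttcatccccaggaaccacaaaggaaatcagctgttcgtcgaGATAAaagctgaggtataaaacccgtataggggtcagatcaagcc

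The promoters of Mcpt1 and Mcpt4 were identical at 86.4% of 242 aligned bases, and both held GATAA on either strand once, at -98 and -102 from the RefSeq start. Those of Mcpt4 and Cma1 were identical at 62.5% of aligned bases. On either strand, GATAA occurred in 6 of the 7 promoters, all but that of Kit, and in 22.6% of 32851 RefSeq promoter windows of this length. CATGTG, an E-box form bound by MITF, occurred in 1 of the 7, that of Fcer1a, and in 12.3% of all windows. GATAA and CATGTG matches did not overlap in any of the 7 promoters, and a match is not a bound site.

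Since TPM corrects for length, it was used for the makeup of the protease RNA. The 7 protease genes summed to 24.9, 74.2 and 190 TPM in PV-10 tumours 1, 2 and 3, against 29.9, 462 and 40.7 TPM in PBS tumours 1, 2 and 3. The mucosal genes Mcpt1 and Mcpt2 together made up 49.0, 30.3 and 43.0% of that sum in PV-10 tumours, against 2.84, 48.1 and 9.36% in PBS tumours. PBS tumour 2 thus lay within the PV-10 range on this share, and PBS tumours 1 and 3 lay below it. Mcpt2 alone made up 46.7, 25.1 and 19.2% in PV-10 tumours, against 1.27, 17.2 and 7.71% in PBS tumours. The groups stood narrowly apart on this share, at 17.2 against 19.2%, but overlapped for Mcpt2 by CPM and by TPM. No other protease share separated the groups, and this measure was not taken over all genes. Mcpt1 made up 2.33, 5.15 and 23.7% in PV-10 tumours and 1.57, 30.9 and 1.65% in PBS tumours. The leading protease was Mcpt2 in PV-10 tumours 1 and 2, Mcpt1 in PV-10 tumour 3 and PBS tumour 2, and Tpsb2 in PBS tumours 1 and 3.

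**Figure D3:**
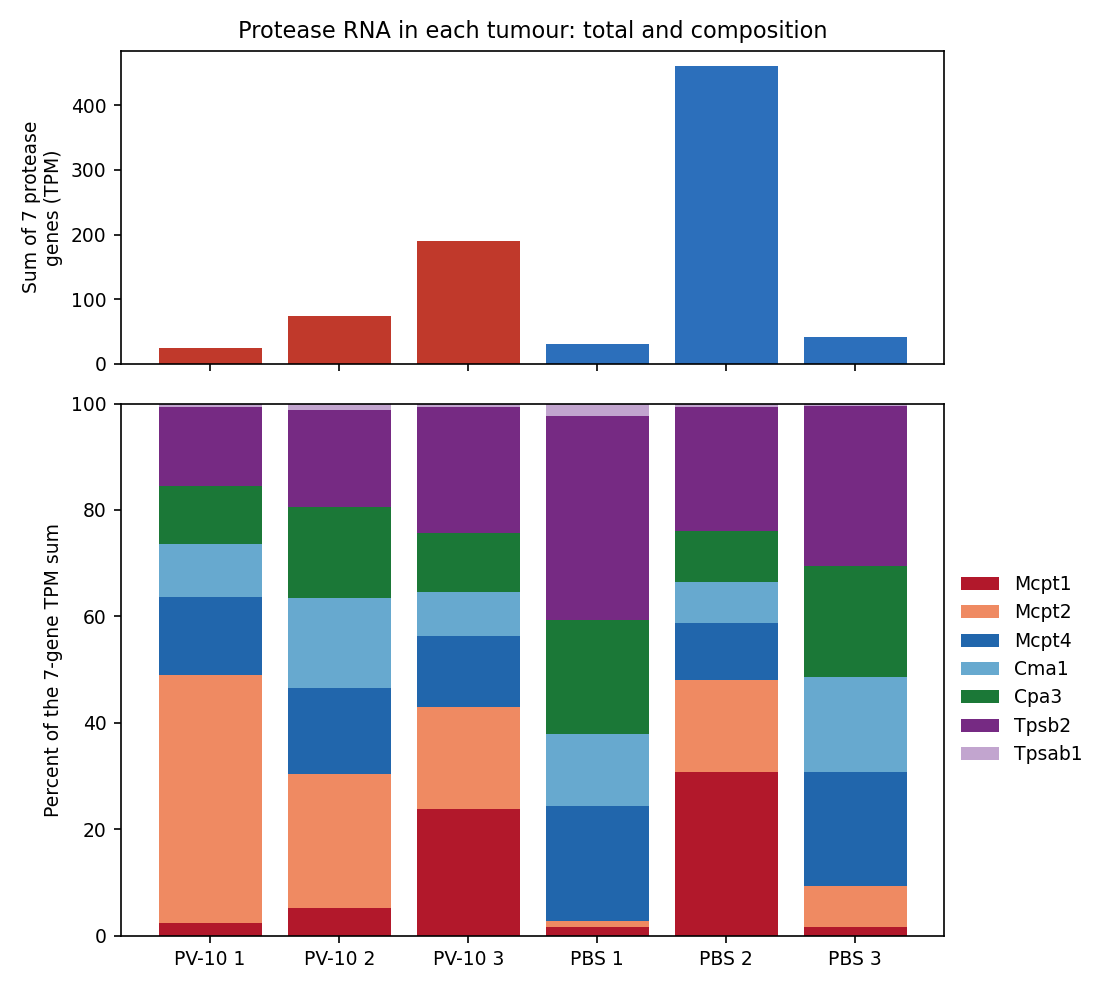
Summed TPM of the 7 protease genes in each tumour (upper bars, red for PV-10 and blue for PBS) and the percentage of that sum from each gene (lower stacked bars). Mcpt1 and Mcpt2 together take 30.3 to 49.0% in PV-10 tumours and 48.1% in PBS tumour 2, against 2.84 and 9.36% in PBS tumours 1 and 3.

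Among the receptor genes, Kit had by far the most reads. Kit (ENSMUSG00000005672.12, chr5:75574916-75656722, plus strand) had 7.504, 13.6 and 21.8 CPM in PV-10 tumours 1, 2 and 3, against 8.19, 36.9 and 11.8 CPM in PBS tumours 1, 2 and 3. The groups overlapped, with PBS tumour 2 highest and PV-10 tumour 1 lowest. By TPM the order differed, with 2.25, 1.79 and 3.19 TPM in PV-10 tumours against 1.43, 8.97 and 3.16 TPM in PBS tumours. Kitl, which encodes the KIT ligand, had 177, 216 and 344 CPM in PV-10 tumours, against 380, 236 and 249 CPM in PBS tumours, and did not pass the test (log2 change -0.23, SE 0.34, edgeR adjusted p = 0.671).

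The IgE receptor chains had few reads and the highest values in PV-10 tumours. Fcer1a (ENSMUSG00000005339.10, chr1:173221284-173227214, minus strand) had 53, 60 and 155 counts in PV-10 tumours 1, 2 and 3, or 0.912, 1.64 and 1.77 CPM. In PBS tumours 1, 2 and 3 it had 1, 45 and 6 counts, or 0.0114, 0.465 and 0.0579 CPM. The CPM groups did not overlap, as was the case, with PV-10 higher, for 22.0% of all tested genes, and with PV-10 lower for 16.8%. The TPM groups did overlap, at 0.450, 1.03 and 1.29 TPM in PV-10 tumours and 0.0100, 0.550 and 0.0800 TPM in PBS tumours. By TPM 0 of the 10 members were without overlap, against 9.58% of all tested genes with PV-10 higher and 31.0% with PV-10 lower. Fcer1a lay below the olfactory receptor percentile by CPM in PV-10 tumours 1 and 2, although above it by TPM. It also lay below it in PBS tumour 1 on both scales, where its 1 count is under the floor of 3, and in PBS tumour 3 by CPM.

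Ms4a2 (ENSMUSG00000024680.12, chr19:11615523-11623719, minus strand) had 63, 144 and 206 counts in PV-10 tumours, that is 1.08, 3.94 and 2.35 CPM. In PBS tumours it had 15, 139 and 15 counts, or 0.171, 1.44 and 0.145 CPM. PBS tumour 2 lay above PV-10 tumour 1, so the groups overlapped. Set against Cpa3 in the same tumour, both chains were higher in every PV-10 tumour than in every PBS tumour, by counts and by TPM. Ms4a2 had 0.129, 0.109 and 0.0530 counts per Cpa3 count in PV-10 tumours, against 0.0147, 0.0247 and 0.0116 in PBS tumours. Fcer1a had 0.109, 0.0454 and 0.0399 counts per Cpa3 count in PV-10 tumours, against 9.79e-04, 0.00799 and 0.00463 in PBS tumours. Of all 22056 tested genes, 6.43% had a ratio to Cpa3 that was higher in every PV-10 tumour by counts and 6.58% by TPM, and 1.10% had one lower in every PV-10 tumour by counts. In PV-10 tumour 1, Ms4a2 at 0.200 TPM lay below the 95th percentile of the olfactory receptor genes (0.310 TPM), as it did by CPM. In PBS tumour 1, Ms4a2 at 0.05 TPM also lay below that percentile (0.0540 TPM), as it did by CPM. The ratios of both chains thus rest in part on values at background in each group, and the part of the low-count background in these ratios was not tested. Fcer1g, whose gamma chain is shared with Fc receptors of macrophages, had 156, 143 and 143 CPM in PV-10 tumours, against 136, 84.4 and 97.7 CPM in PBS tumours (log2 change 0.48, SE 0.27, edgeR adjusted p = 0.270).

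In the comparison of PV-10 with PBS, 0 of the 10 genes were called by edgeR's quasi-likelihood test, against 5.09% of all tested genes in either direction, 3.17% higher and 1.92% lower in PV-10 (adjusted p under 0.05, n = 3 each). None of the 10 had an unadjusted p under 0.05, which 30.0% of all tested genes had, and DESeq2 called 0 of the 10, against 29.6% of the genes it tested. The fitted log2 changes of PV-10 over PBS were above 0 for 6 genes and below 0 for 4. Their median was 0.13, against 0.30 for all tested genes. Mcpt1 averaged 23.7 ± 33.9 CPM in PV-10 and 41.0 ± 70.0 CPM in PBS tumours (SD, n = 3 each), with a log2 change of -0.79 (SE 1.96). Mcpt2 averaged 38.7 ± 14.3 CPM in PV-10 and 25.2 ± 40.5 CPM in PBS tumours, with a log2 change of 0.62 (SE 1.34). For Mcpt4, Cma1, Cpa3, Tpsb2 and Tpsab1 the log2 changes were 0.15, 0.29, 0.11, -0.31 and -0.07, each smaller than its SE of 0.71 to 0.90. Kit was at -0.40 (SE 0.57), Fcer1a at 3.00 (SE 1.46) and Ms4a2 at 2.07 (SE 1.05) on the log2 scale, the last pair with values at background in both groups as given above.

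PBS tumour 2 was the highest of the PBS tumours for all 10 genes and the highest of all tumours for 8 of them by CPM. Without PBS tumour 2 the log2 changes of Mcpt1, Mcpt2, Mcpt4, Cma1, Cpa3, Tpsb2, Tpsab1 and Kit were 5.27, 4.34, 1.40, 1.48, 1.27, 1.28, 1.14 and 0.49, all positive, and 0 of the 10 genes were called, in a fit that called 0.00721% of all tested genes. PV-10 tumour 3 held the most Mcpt1, Mcpt2, Mcpt4, Cpa3, Tpsb2 and Kit RNA of the PV-10 tumours by CPM. Without it the log2 changes of Mcpt1, Mcpt2, Mcpt4, Cma1, Cpa3, Tpsb2, Tpsab1 and Kit were -3.31, 0.30, -0.38, 0.04, -0.31, -1.26, -0.26 and -0.85, with 0 of the 10 called, in a fit that called 41.4% of all tested genes. Fcer1a and Ms4a2 kept positive log2 changes in every fit in which 1 tumour was left out, between 2.42 and 5.27 for Fcer1a and between 1.54 and 3.92 for Ms4a2.

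**Figure D4:**
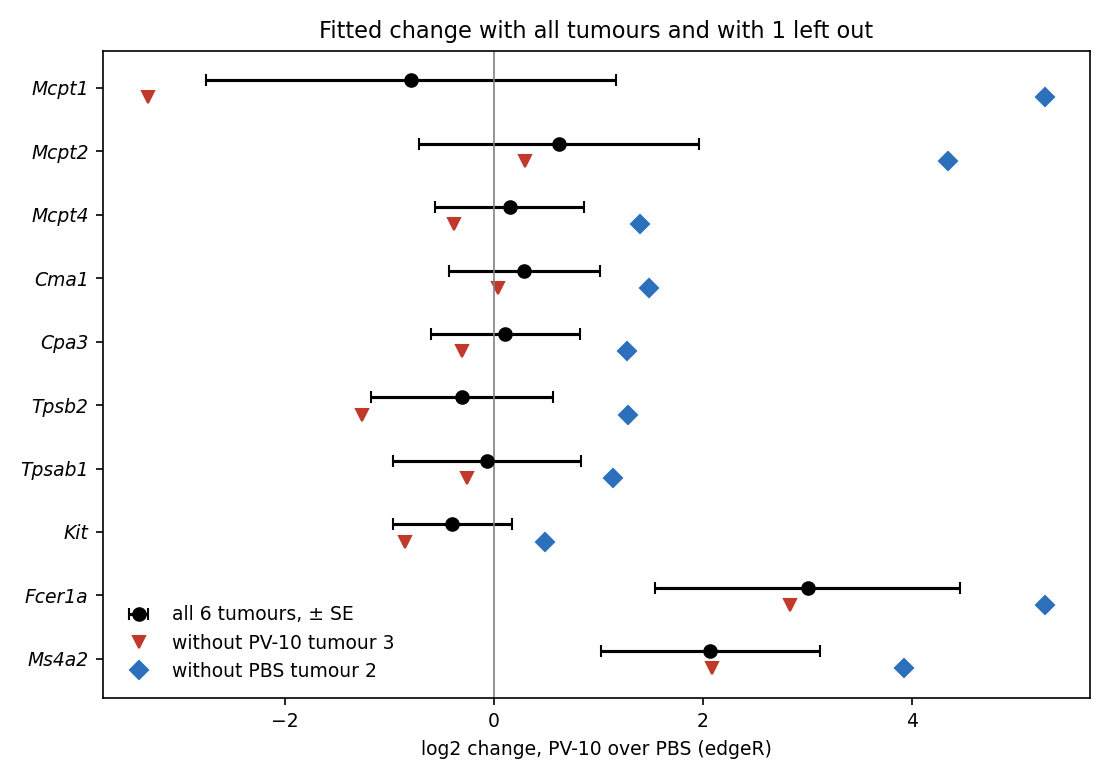
Log2 change of PV-10 over PBS from edgeR for each gene, with all 6 tumours (black, bars are ± SE) and without PV-10 tumour 3 (red) or PBS tumour 2 (blue). Leaving out PBS tumour 2 moves Mcpt1 to 5.27 and leaving out PV-10 tumour 3 moves it to -3.31, on either side of the -0.79 with all tumours.

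Other genes of mast cells were read from lists. Of 13 genes for granule storage and lipid or amine mediators, 13 were tested and 0 were called. Those of highest TPM were Srgn, the core protein of the granule proteoglycan serglycin, Ptgs1, a prostaglandin synthase, and Alox5ap, which assists leukotriene synthesis, all of them also used by other leukocytes. Srgn averaged 296 ± 130 CPM in PV-10 and 160 ± 41.2 CPM in PBS tumours, Ptgs1 38.7 ± 16.8 CPM in PV-10 and 99.5 ± 12.6 CPM in PBS tumours, and Alox5ap 21.0 ± 8.93 CPM in PV-10 and 14.7 ± 0.858 CPM in PBS tumours. Their log2 changes were 0.89, -1.36 and 0.51 (edgeR adjusted p = 0.139, 0.0505 and 0.341). Of 14 other surface and identity genes 11 were tested and 0 called, and of 8 transcription factors 8 were tested and 0 called. Cd63, a granule membrane tetraspanin, averaged 965 ± 218 CPM in PV-10 and 496 ± 6.89 CPM in PBS tumours (edgeR adjusted p = 0.0645), and Il1rl1, the IL-33 receptor, 34.8 ± 10.4 CPM in PV-10 and 59.8 ± 2.22 CPM in PBS tumours (edgeR adjusted p = 0.103). Adora3, an adenosine receptor gene, averaged 2.92 ± 1.29 CPM in PV-10 and 2.24 ± 0.314 CPM in PBS tumours. Of 14 IgE receptor signalling genes 0 were called, with a median log2 change of -0.61. Lyn, the kinase that acts first on the receptor, averaged 42.6 ± 19.3 CPM in PV-10 and 84.6 ± 11.9 CPM in PBS tumours (edgeR adjusted p = 0.0891), and the inhibitory phosphatase gene Inpp5d 32.5 ± 20.6 CPM in PV-10 and 70.6 ± 9.44 CPM in PBS tumours (edgeR adjusted p = 0.103). Among transcription factors, Bhlhe41, Lmo2 and Stat5b had log2 changes of -1.09, 0.02 and -0.85. Of 10 growth factors and alarmins 6 were tested and 0 called, among them Il33 (log2 change -0.69) and Tgfb1 (-1.29), while Il3 and Il9 had 0 counts in all tumours.

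Several genes that mast cells use more narrowly were chosen after their values were seen. Tph1, which makes serotonin, had 1.12, 1.40 and 2.81 CPM in PV-10 tumours 1, 2 and 3, against 0.364, 5.05 and 0.357 CPM in PBS tumours 1, 2 and 3. Mrgprb1, a gene of the Mas-related receptor family, had 2.10, 2.63 and 2.12 CPM in PV-10 tumours, against 0.557, 4.28 and 0.463 CPM in PBS tumours. Hdc, which makes histamine, had 2.46, 2.55 and 2.41 CPM in PV-10 tumours, against 0.864, 4.39 and 2.49 CPM in PBS tumours. By CPM, PBS tumour 2 was highest for these 3 genes and the PV-10 tumours lay inside the PBS range. By TPM this did not hold for Tph1, at 0.150, 0.140 and 2.89 TPM in PV-10 tumours against 0.270, 2.44 and 0.190 TPM in PBS tumours, nor for Hdc, at 0.260 TPM in PV-10 tumour 2 against a lowest PBS value of 0.500 TPM. Tph1 lay below the olfactory receptor percentile by CPM and by TPM in PV-10 tumours 1 and 2. By TPM alone, Mrgprb1 lay below it in PV-10 tumours 1 and 2, at 0.220 and 0.290 TPM, and Hdc in PV-10 tumour 2. Other genes of the same lists differed by CPM, with Slc18a2 highest in PV-10 tumour 1 and Cd200r3 highest in PV-10 tumour 2. By TPM both were highest in PBS tumour 2, at 0.310 TPM for Slc18a2 and 0.790 TPM for Cd200r3. In PV-10 tumours 1 and 2, Slc18a2 lay below the olfactory receptor percentile on both scales, at 1.46 and 1.12 CPM.

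Mcpt8, a serine protease gene of the chymase cluster that marks basophils rather than mast cells, was the only gene called in the list of 11 other chymase and tryptase cluster genes, of which 10 were in the table and 4 were tested. It rose to 7.68, 17.5 and 4.89 CPM in PV-10 tumours 1, 2 and 3, against 1.48, 0.817 and 2.16 CPM in PBS tumours 1, 2 and 3. The log2 change was 2.75 (SE 0.56, edgeR adjusted p = 0.0443), and PV-10 was higher than PBS in all tumours by CPM and by TPM. The adjusted p was 0.0735 to 0.205 without PV-10 tumour 1 or 2 or any of the PBS tumours, and 0.168 (log2 change 2.06) with each library's trend with transcript length removed. PBS tumour 2, highest for the mast cell proteases, was lowest for Mcpt8. Of 6 basophil genes 5 were tested, and only Mcpt8 was called. Prss34 had 0 counts in all 6 tumours. Cd200r3, which mast cells share, had 1.91, 2.74 and 1.51 CPM in PV-10 tumours, against 0.489, 2.04 and 0.550 CPM in PBS tumours (edgeR adjusted p = 0.427). Il3ra, Hgf and Itga2b had log2 changes of -0.44, 0.55 and 0.29 (edgeR adjusted p = 0.469, 0.201 and 0.752). Basophils also carry Fcer1a and Ms4a2, and their part in the values of those genes was not tested.

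Markers of other cells were read for their summed levels. Of 9 eosinophil genes 3 were tested and 0 called. The sum of the 9 was 3.04 to 4.76 CPM in PV-10 and 0.473 to 1.05 CPM in PBS tumours. Most of it in PV-10 tumours 1 and 3 was Il5ra, at 3.32 and 4.45 CPM, against 0.548 CPM in PV-10 tumour 2. Epx had 0 counts in all tumours. Of 8 melanocyte genes, which could carry Kit, 4 were tested and 0 called. The sum was 1.45 to 4.85 CPM in PV-10 and 0.171 to 0.734 CPM in PBS tumours. Tyr had 51, 83 and 0 counts in PV-10 tumours 1, 2 and 3, against 0, 16 and 0 in PBS tumours. Pmel had 24, 17 and 35 counts in PV-10 and 15, 20 and 69 in PBS tumours. Sox10 had 33, 49 and 29 against 0, 0 and 3, and Slc45a2 43, 17 and 12 against 0, 0 and 0. Dct had 64, 0 and 36 counts and Tyrp1 12, 0 and 0 in PV-10 tumours, and neither had a count in PBS tumours. The median olfactory receptor gene alone had 0.551 and 0.466 CPM in PV-10 tumours 1 and 2 and 0 in the other libraries, and the part of melanocytes in Kit was not tested. Skeletal muscle genes summed to 400, 812 and 140 CPM in PV-10 tumours 1, 2 and 3, against 222, 108 and 105 CPM in PBS tumours 1, 2 and 3. Differentiated skin genes summed to 25.7, 29.2 and 11.7 CPM in PV-10 and 12.7, 6.55 and 5.06 CPM in PBS tumours, and adipocyte genes to 21.6, 29.9 and 14.4 CPM in PV-10 and 12.7, 9.06 and 14.5 CPM in PBS tumours. None of the 12 muscle, 9 skin and 6 adipocyte genes tested was called. PBS tumour 2, with the most protease RNA, was not the highest PBS tumour for any of these 3 sums. It was the highest PBS tumour for the endothelial and neutrophil sums, the latter through Mmp9. Endothelial genes summed to 182, 146 and 459 CPM in PV-10 tumours 1, 2 and 3, against 247, 537 and 475 CPM in PBS tumours 1, 2 and 3. Neutrophil genes summed to 30.3, 25.3 and 38.2 CPM in PV-10 tumours, against 41.9, 239 and 26.5 CPM in PBS tumours. Mmp9 alone held 232 CPM of the neutrophil sum in PBS tumour 2. No other tested neutrophil gene was highest in that tumour. The part of any of these cells or tissues in the protease levels was not tested. In the fibroblast list 7 of 10 genes had a log2 change above 0 and 1 was called higher. This was the matrix gene Dpt, named after its value was seen. Dpt averaged 18.4 ± 9.65 CPM in PV-10 and 3.87 ± 1.48 CPM in PBS tumours (log2 change 2.25, edgeR adjusted p = 0.0443). Its TPM groups overlapped, at 2.87 TPM in PV-10 tumour 3 and 3.07 TPM in PBS tumour 3. None was called among 10 endothelial, 10 macrophage, 5 neutrophil and 9 T cell genes tested.

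Likeness of pattern was ranked over 13126 genes that were neither members nor predicted genes, by Pearson correlation of log2 CPM with the mean standardized level of the 7 proteases over the 6 tumours. The values describe 6 libraries of unequal depth in 2 groups, so no p is given. Among the 10 most alike were Mmp10 (0.983), Mmp13 (0.974), Ddhd2 (0.967), Esm1 (0.959), Zfand5 (0.956), Thrb (0.956), Slc5a7 (0.952), Fmo2 (0.945) and Slc25a38 (0.939). In all, 32 of the 13126 genes exceeded 0.9. On log2(TPM + 0.1) only Mmp10 and Slc5a7 of the 10 stayed in the top 10, so the ranking depends on the scale. Mmp10, a stromelysin gene, had 4.97, 10.4 and 13.7 CPM in PV-10 tumours 1, 2 and 3, against 4.001, 25.4 and 3.96 CPM in PBS tumours 1, 2 and 3. Of 12 other genes of mast cells or their locus, the correlation with the same pattern was 0.92 for Tph1, 0.82 for Gata2, 0.81 for Mrgprb1, 0.67 for Cd200r3, 0.65 for Srgn, 0.64 for Hdc, 0.55 for Gzmb and 0.53 for Slc18a2. It was -0.03 for Mcpt8, -0.06 for Slc6a4, -0.34 for Il1rl1 and -0.35 for Enpp3, so these genes did not move as 1 set. For Kit the 5 most alike were Angpt2 (0.979), Fmo2 (0.977), Nt5e (0.974), Gadd45a (0.973) and Whrn (0.973), and by TPM only Angpt2 stayed in the top 5.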

How the data were processed

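Bulk RNA of 6 tumours was sequenced as stranded paired reads of 100 bases. Per the labels' protocols, the authors detected adapter sequence (BBMerge 37.02), trimmed it (cutadapt 1.8.1), mapped to mm10 (STAR 2.7.7a) and estimated gene levels by RSEM 1.3.0 with Gencode release M21. The authors deposited estimated counts per gene, as whole numbers, and TPM values from the same run. Columns were matched to tumours by library name. Counts were tested with edgeR 4.0.16 (R 4.3.3; default expression filter, TMM, robust quasi-likelihood F test, Benjamini-Hochberg over 22056 genes), and each SE was taken as the absolute log2 change divided by root F. The fit was tested on simulated data. Alternatives covered DESeq2 1.42.0, its size factors within edgeR, plain library size, other filters, limma-voom and limma 3.58.1 on log2(TPM + 1) or log2(TPM + 0.1), a replicate block, removal of each library's trend with effective length (counts over TPM, splines with 5 degrees of freedom), and each tumour left out. Comparing group overlap by TPM and by library size was added after seeing the data. Transcripts were aligned with Biopython 1.88. The members, lists and tests were chosen with earlier results of these data known. Named were all members, from each mast cell list up to 4 called genes of smallest p or else the 3 of highest TPM, at most 2 from other lists, and the genes most alike in pattern, of which 1 is not reported here. Genes at 0 counts are named for that reason. Nothing in the labels ties tumour numbers across groups, and p-values measure the spread between these samples.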

Additional observations from a re-analysis of the deposited data

How the results depend on the processing

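None of the 10 members was called in any of the 16 alternatives, and the count of called genes over the whole table moved widely. Against 699 higher and 423 lower genes, DESeq2 called 5841 and 2319, DESeq2 size factors in edgeR 1449 and 1073, no low-count filter 2037 and 2627, a mean count of at least 50 1593 and 1112, log2(TPM + 1) 251 and 3786, log2(TPM + 0.1) 418 and 3580, and removal of the effective length trend 0 and 0, with 5128 genes at an unadjusted p under 0.05. Lower genes numbered 1461 with library size alone and 1181 with limma-voom. With a replicate block, 1054 genes were higher and 1818 lower. The deviations of same-numbered tumours correlated at -0.049, 0.071 and 0.072. Such values over all tested genes cannot exclude a pairing, and the labels state none. Leaving out 1 tumour gave 1 to 6884 higher and 0 to 4515 lower genes, the highest counts without PV-10 tumour 3. The median log2 change of all tested genes was 0.30, and ran from -0.43 with log2(TPM + 0.1) to 1.63 with no filter.

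Fcer1a, Ms4a2, Mcpt2 and Mcpt8 kept a positive log2 change in all 16 alternatives, and Mcpt8 was called in 10. For Mcpt2 the change was close to none in some, at 0.01 without PBS tumour 1 and 0.07 without PBS tumour 3. It was 4.34 without PBS tumour 2. The other members changed sign in some alternatives, none of them called. Mcpt1 was 1.43 with limma-voom, 0.31 with log2(TPM + 0.1) and 1.11 with the block. Tpsab1 was 0.03 with DESeq2 and with its size factors, 0.08 with a mean count of at least 50, 0.37 with limma-voom and 0.21 with the block. Cpa3 was -0.04 with no filter. With log2(TPM + 1), log2(TPM + 0.1) and the length trend removed, Mcpt4 was -0.41, -0.44 and -0.25, Cma1 -0.31, -0.35 and -0.14, and Cpa3 -0.51, -0.57 and -0.22. With 1 tumour left out the range was -3.31 to 5.27 for Mcpt1, -0.38 to 1.40 for Mcpt4, -0.15 to 1.48 for Cma1, -0.31 to 1.27 for Cpa3, -1.26 to 1.28 for Tpsb2, -0.58 to 1.14 for Tpsab1 and -0.85 to 0.49 for Kit. The causes of these shifts were not tested. Groups did not overlap for 1 of 10 members by CPM and 0 by TPM. Of all tested genes, 22.0% by CPM and 9.58% by TPM had no overlap with PV-10 higher. With PV-10 lower the shares were 16.8% by CPM and 31.0% by TPM.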
